A study of Mus musculus with 12 samples.

Results

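The interferon regulatory factors are a family of transcription factors, and 8 of their genes (Irf1, Irf2, Irf3, Irf4, Irf5, Irf7, Irf8 and Irf9) were followed across the myeloid cells of the mouse bone marrow. The members were chosen by name and matched by mouse symbol to 8 of the 56953 genes listed in the deposited tables. Every member was counted in every library and entered every test, so no member was lost to a filter on low values.

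The libraries came from bone marrow of female C57BL/6J mice at 8 weeks of age, with 4 sorted groups of 3 libraries each. The study describes the macrophages as coming from Rank cre/+;R26.eYFP fl/+ mice, a lineage tracing cross in which Rank-cre switches on eYFP in macrophages of embryonic origin and their progeny. F4/80hi CD206+ VCAM1+ macrophages were split into eYFP+ cells (embryonic progenitor derived) and eYFP- cells (labelled as derived from adult hematopoietic stem cells), and both kinds of monocyte, Ly6Chi and Ly6Clo, were sorted alongside. Both macrophage groups thus share the Cre and reporter alleles, the genotype behind the sequenced monocytes is not stated, no treatment is named, and an eYFP- cell is adult derived only as far as the reporter labels every embryonic cell. Neither whether animals were pooled nor whether libraries with one number share a mouse is stated, so p-values measure the spread between these samples, which may be technical.

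All members carry a related DNA-binding domain with conserved tryptophans that reads GAAA-containing elements, such as the interferon-stimulated response element (ISRE) in the promoters of antiviral genes. Irf3, Irf5 and Irf7 are switched on by phosphorylation below nucleic acid sensors and induce type I interferons, Irf9 is the DNA-binding part of the complex that answers them, and Irf1 and Irf2 were first known as an activator and a repressor at the same sites. Irf4 and Irf8 bind weakly alone and act with partners such as PU.1 (encoded by Spi1), and Irf8 is required for the normal formation of monocytes and several dendritic cells.

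Promoters are shown for a pair of members whose RNA differed in opposite directions between macrophages and monocytes, Irf8 (higher in macrophages) and Irf2 (lower), since both windows hold letters that interferon-activated factors are known to read. Sequences are from RefSeq on GRCm38.p6, plus strand, and run from 250 bases before the annotated start to the base before it. Irf8 lies at chr8:120736108-120736357 and Irf2 at chr8:46739495-46739744, and capitals mark motif matches.
Irf8: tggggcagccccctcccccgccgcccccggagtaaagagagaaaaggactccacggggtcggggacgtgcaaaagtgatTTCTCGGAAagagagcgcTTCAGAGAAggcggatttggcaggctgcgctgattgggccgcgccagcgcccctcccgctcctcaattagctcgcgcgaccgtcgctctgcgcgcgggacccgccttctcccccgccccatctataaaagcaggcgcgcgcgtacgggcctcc
Irf2: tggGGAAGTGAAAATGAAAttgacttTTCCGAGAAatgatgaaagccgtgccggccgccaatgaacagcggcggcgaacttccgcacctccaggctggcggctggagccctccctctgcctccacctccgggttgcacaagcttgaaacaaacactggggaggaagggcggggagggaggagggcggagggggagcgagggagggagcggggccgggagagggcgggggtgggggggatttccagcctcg
The Irf8 stretch holds 2 matches to the interferon-gamma activated site (GAS, searched as TTCNNNGAA), which begin 171 and 153 bases before the start. The Irf2 stretch holds an ISRE match (GAAANNGAAA) 241 bases before the start, a match to the ETS-IRF composite element (EICE, GGAANNGAAA) at 247 that overlaps it in sequence, and a GAS match at 224. On both strands of the 32851 RefSeq mouse promoter windows of 300 bases (250 before the start to 50 after), 3.44% hold the ISRE letters, 2.72% the EICE letters and 8.3% the GAS letters. All 8 members have at least 1 window, 11 in all, and the only other match in them was a GAS in Irf1, 90 bases before the start. A match is a string of letters and not a measured binding site.

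Depth was 26390927 to 48618187 counts per library. The 6 macrophage markers summed to between 13281 and 20659 TPM (a transcript level corrected for length and library size) in macrophage libraries. In monocyte libraries they summed to 1835 to 3306 TPM, and 5 of 6 were called higher in macrophages. Adgre1, Mrc1 and Vcam1 encode proteins the macrophages were sorted on, so these genes cannot check the labels. Vcam1 made up most of the sum (12312 and 9392 TPM on average in eYFP+ and eYFP- macrophages). Of the others, Cd68 and Mertk had higher means in both macrophage groups than in either monocyte group. Csf1r did not (1055 and 981 TPM against 1116 and 1248 TPM in Ly6Chi and Ly6Clo monocytes). The 8 monocyte markers, which include the sort gene Ly6c2, summed to 735 to 10126 TPM in monocytes against 51.1 to 128.7 TPM in macrophages. The 8 markers of plasmacytoid dendritic cells, which are known for much Irf7 and Irf8, summed to 15.6 to 34.5 TPM over all libraries, with Klk1 at 0 in both macrophage groups and in Ly6Chi monocytes and Pacsin1 at 0 in both monocyte groups, and 3 of the 6 tested were higher in macrophages. Markers of other cells differed between the groups. The 8 erythroid markers summed to 8783 to 35141 TPM in macrophages, where all 8 were higher, and the 10 B and plasma cell markers to 467 to 703 TPM there against 29.7 to 143.6 TPM in monocytes, with 2 called higher. That sum was nearly all Cd79b (562 and 513 TPM on average in eYFP+ and eYFP- macrophages), while Cd79a averaged 0.236 to 4.0 TPM over the groups and Ms4a1 averaged at most 0.317 TPM in any group. Of 9 T and NK cell markers 5 were higher in macrophages (median log2 difference 2.74; 4 by edgeR), although the sums overlapped (7.97 to 120.0 against 22.1 to 51.2 TPM). Of 8 conventional dendritic cell markers, a cell type known for Irf4 and Irf8, 3 were lower in macrophages and 1 higher (median log2 difference 0.62), with Xcr1 at 2.67 ± 0.83 (DESeq2 adjusted p = 0.00518), Cd209a at -8.36 ± 0.55 (DESeq2 adjusted p = 1.09e-49) and Flt3 at -3.60 ± 0.58 (adjusted p = 7.18e-09). The 8 neutrophil markers summed to 15549 to 23652 TPM in Ly6Chi and 6710 to 15857 TPM in Ly6Clo monocytes, and 6 of them were lower in macrophages. Their part in the members' values was not tested, and in bulk RNA fewer cells of a type and less RNA per cell cannot be told apart.

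A pair of libraries stood apart. Over the 13130 genes with a mean of at least 50 normalized counts, eYFP+ replicate 1 correlated with its group mates at r = 0.912 and 0.906, against 0.969 between those mates. Ly6Clo replicate 2 correlated at 0.793 and 0.801, against 0.954 between its mates. Replicates 1 and 2 of eYFP- macrophages correlated at 0.915, so by this measure eYFP+ replicate 1 was far less clearly apart than Ly6Clo replicate 2. Both libraries of the pair were low in GC-rich genes. Among the fifth of genes richest in GC the median difference from the group mates was -0.58 and -1.06 on the log2 scale of normalized counts. Several members were among the lowered genes. Irf8 differed from the mates by -2.69 in eYFP+ replicate 1, lower than all but 2.22% of the 13130 genes compared, and Irf1 differed by -2.89 and Irf8 by -2.29 in Ly6Clo replicate 2. Irf5 differed by -1.30 and -2.24. Irf3, the member with the most GC in its longest transcript (56.7%), differed by 0.47 and -0.19, above the median of genes of like GC content. Ly6Clo replicate 2 was also richest in conventional dendritic cell markers, at 3000 TPM in sum for 8 genes against 777 and 840 TPM in its mates, and 2820 TPM of that sum was the single gene Cd209a. Their part in the members' values was not tested, and the members' differences are given with all 12 libraries and without these 2.

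**Figure D1:**
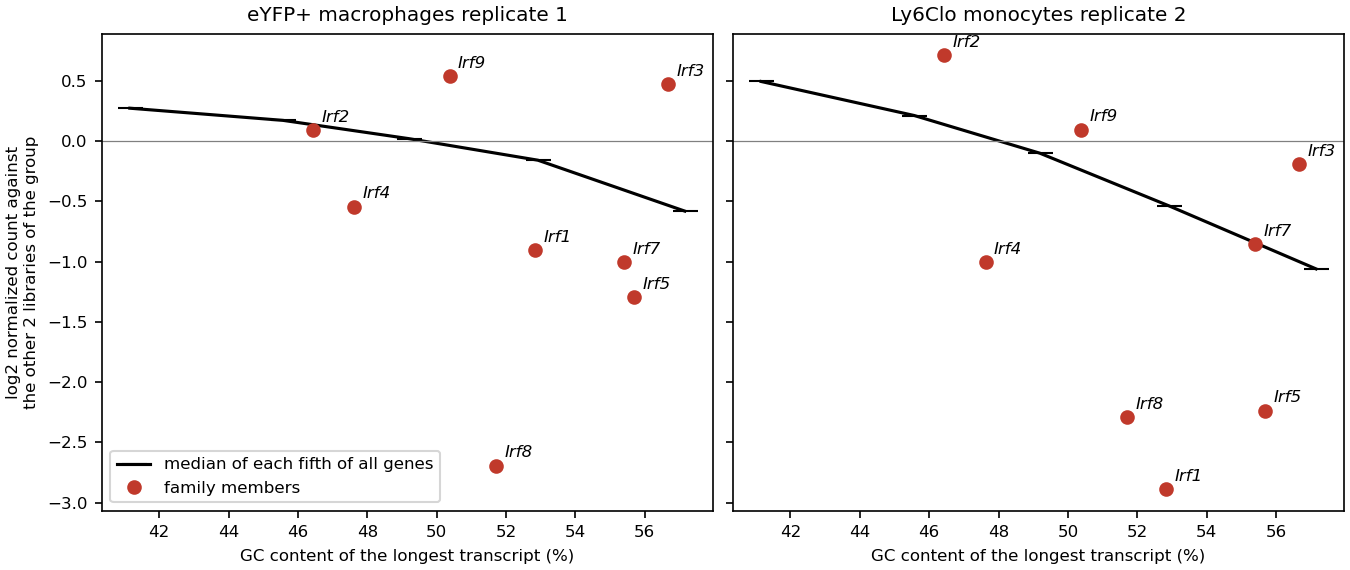
Difference of each member from the other 2 libraries of its group (y axis, log2 normalized count) in the pair of libraries that stood apart. The x axis is the GC content of its longest transcript (percent). The black line joins the medians of genes with a mean of at least 50 normalized counts, split into 5 equal bins of GC content. Irf8 sits at -2.69 and -2.29, far below the line, while Irf3 at 56.7% GC sits above it.

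The make-up of the family differed between the cell types. Of the summed TPM of the 8 genes, Irf8 held 38.4% ± 1.60 (SD, n = 3) in eYFP- macrophages and 30.3% ± 15.3 in eYFP+ macrophages, against 12.3% ± 1.05 in Ly6Chi and 8.89% ± 3.14 in Ly6Clo monocytes. Irf5 showed the opposite pattern, with 14.3% ± 2.98 and 16.0% ± 1.40 in eYFP- and eYFP+ macrophages against 38.7% ± 2.56 and 36.7% ± 12.4 in Ly6Chi and Ly6Clo monocytes. Irf7 took 22.3% ± 1.97, 18.9% ± 1.71, 28.7% ± 4.12 and 17.9% ± 3.15 in the same order of groups. Irf4 never passed 1% (0.0219% to 0.831%). In eYFP+ replicate 1 the Irf8 share was 12.8%, a value in the monocyte range, and without that library the eYFP+ mean was 39.1%. These shares are descriptions, with no test. The summed level of the family was 1502 to 1794 TPM in eYFP- macrophages, 1937 to 2364 TPM in Ly6Chi monocytes, 1384 and 1475 TPM in Ly6Clo replicates 3 and 1 and 1836 and 1843 TPM in eYFP+ replicates 2 and 3, and fell to 747 and 546 TPM in the libraries that stood apart.

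**Figure D2:**
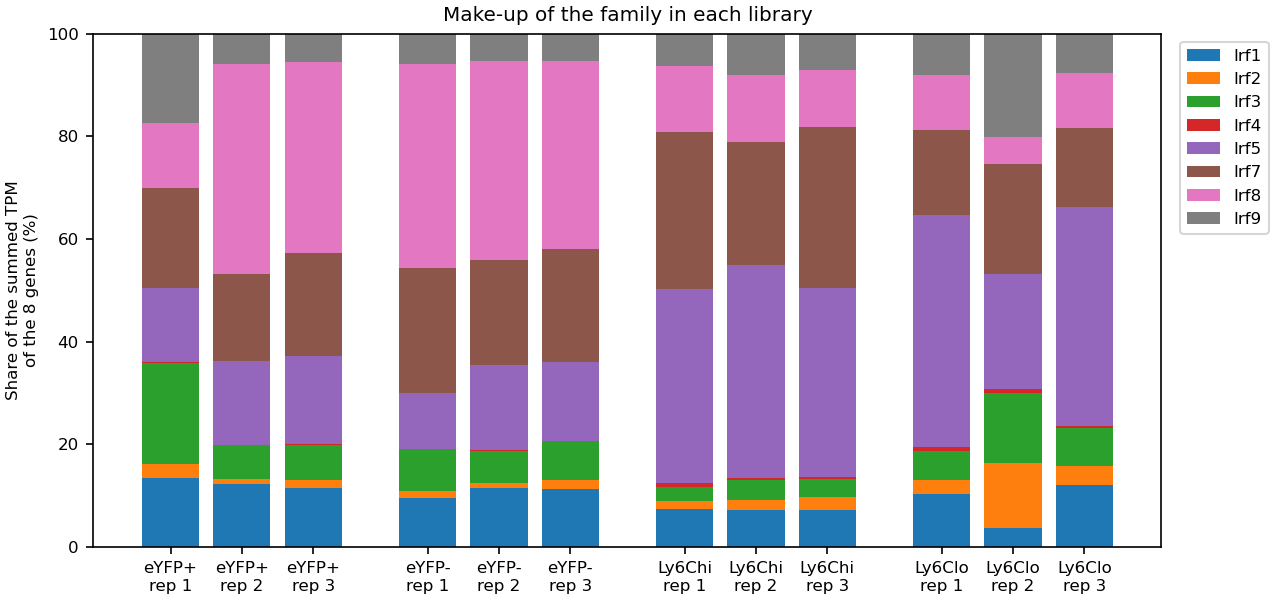
Share of each member (y axis, percent of the summed TPM of the 8 genes) in each of the 12 libraries (x axis, by group and replicate). Irf8 fills 36.6% to 40.9% of 5 macrophage bars and 12.8% of eYFP+ replicate 1, while Irf5 fills 36.8% to 45% of 5 monocyte bars and 22.4% of Ly6Clo replicate 2.

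Macrophages were compared with monocytes with the groups of each cell type averaged at equal weight, which asks how resident macrophages differ from monocytes whatever their origin. Irf8 and Irf3 were higher in macrophages, and Irf4, Irf5, Irf2 and Irf9 were lower. These 2 higher and 4 lower calls (DESeq2, Benjamini-Hochberg adjusted p under 0.05) stand beside 20.3% of all genes tested called higher and 15.0% called lower. The same 6 members in the same directions were called by edgeR's quasi-likelihood test and without the pair of libraries that stood apart, where 22.3% of all genes tested were higher and 18.9% lower. Irf1 and Irf7 were not called.

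Irf8 was the member with the highest level in 5 of 6 macrophage libraries. It stood at 95.4, 751 and 687 TPM in eYFP+ replicates 1, 2 and 3 and at 596, 696 and 598 TPM in eYFP- macrophages. In Ly6Chi monocytes it was 303, 253 and 246 TPM and in Ly6Clo monocytes 158, 28.8 and 148 TPM. The other 5 macrophage libraries lay above every monocyte library, and eYFP+ replicate 1 lay below all Ly6Chi libraries. The log2 fold change of macrophages over monocytes was 1.60 ± 0.46 (SE; DESeq2 adjusted p = 0.0022, n = 6 libraries each), and 1.57 ± 0.12 (adjusted p = 1.01e-37) without the libraries that stood apart. In the order of levels, eYFP- and eYFP+ macrophages did not pass the test against each other. Against Ly6Chi monocytes neither eYFP- nor eYFP+ macrophages passed (eYFP+ 0.79 ± 0.65, DESeq2 adjusted p = 0.444). Without the libraries that stood apart both were called, with eYFP+ macrophages at 1.22 ± 0.17 (adjusted p = 7.26e-12). That fit was added after seeing the data and kept only eYFP+ replicates 2 and 3, without the eYFP+ library that lay below all Ly6Chi libraries.

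Irf4, the lymphoid and dendritic cell relative of Irf8, was the rarest member. Its levels were 0.949, 1.19 and 2.20 TPM in eYFP+ and 0.330, 1.03 and 0.777 TPM in eYFP- macrophages, from 36 to 257 counts. They were 17.7, 9.23 and 8.13 TPM in Ly6Chi and 12.3, 4.47 and 7.73 TPM in Ly6Clo monocytes. No macrophage library reached the lowest monocyte library. The difference of macrophages from monocytes was -3.39 ± 0.36 on the log2 scale (DESeq2 adjusted p = 6.66e-20), the largest in the family (-3.48 ± 0.32 without the libraries that stood apart), and each of the 4 macrophage and monocyte pairs of groups passed the test. Irf4 and Irf8, which share partners, differed in opposite directions, with an Irf8 to Irf4 ratio of TPM from 101 to 1809 in macrophages and from 6.44 to 30.3 in monocytes.

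Among the members that act below nucleic acid sensors, Irf5, known for its role downstream of Toll-like receptors, was lower in macrophages. It measured 108, 302 and 316 TPM in eYFP+ and 164, 298 and 251 TPM in eYFP- macrophages. Ly6Chi monocytes held 891, 806 and 814 TPM and Ly6Clo monocytes 665, 123 and 590 TPM. All Ly6Chi libraries stood above the rest, and Ly6Clo replicate 2 fell into the macrophage range. The log2 difference of macrophages from monocytes was -1.49 ± 0.38 (DESeq2 adjusted p = 0.000472), and -1.59 ± 0.15 (adjusted p = 3.41e-26) without the libraries that stood apart. Some 14.1% of the exon bases of Irf5 overlap Tnpo3 on the opposite strand in the GENCODE M21 annotation, and whether counting used the strand is not stated. Opposite-strand overlaps with a neighbouring gene were 1.2% to 3.4% of exon bases for Irf1, Irf3 and Irf7, and 2.3% of those of Irf9 overlap Rnf31 on the same strand.

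Irf3, a latent activator present in most cells, was slightly higher in macrophages. Its levels were 148, 121 and 128 TPM in eYFP+ and 122, 114 and 124 TPM in eYFP- macrophages against 66.7, 75.5 and 79.4 TPM in Ly6Chi and 82.9, 74.3 and 102 TPM in Ly6Clo monocytes. The macrophage and monocyte libraries did not overlap. The log2 difference was 0.57 ± 0.18 (DESeq2 adjusted p = 0.00612) and passed without the libraries that stood apart (0.40 ± 0.15, adjusted p = 0.0179), but with a correction of each library for GC content, which moved the median of all genes by -0.19, it was 0.19 ± 0.32 (adjusted p = 0.685).

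Irf7, the inducible amplifier of the interferon response, did not pass the test between macrophages and monocytes (-0.24 ± 0.27, DESeq2 adjusted p = 0.539), nor without the libraries that stood apart (-0.27 ± 0.16, adjusted p = 0.198), and the correction for GC content gave a call (-0.57 ± 0.21, adjusted p = 0.0201). Its macrophage group means lay between those of the 2 kinds of monocyte, with 146, 311 and 372 TPM in eYFP+ and 367, 368 and 362 TPM in eYFP- macrophages, against 727, 465 and 696 TPM in Ly6Chi and 246, 117 and 214 TPM in Ly6Clo monocytes. The mean over both monocyte groups hides this spread. Against Ly6Chi monocytes alone, Irf7 was lower in eYFP+ macrophages (-1.31 ± 0.38, DESeq2 adjusted p = 0.00333), a call that limma on unfiltered values did not make. For eYFP- macrophages this difference was -0.90 ± 0.38 (adjusted p = 0.059), and -0.94 ± 0.21 (adjusted p = 3.92e-05) without the libraries that stood apart.

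Irf2, the repressor, was lower in macrophages. It measured 20.5, 17.6 and 28.5 TPM in eYFP+ and 19.3, 17.6 and 29.6 TPM in eYFP- macrophages, against 35.8, 35.1 and 56.1 TPM in Ly6Chi and 41.5, 69.4 and 51.0 TPM in Ly6Clo monocytes. The ranges of macrophages and monocytes did not overlap, and the log2 difference was -1.21 ± 0.26 (DESeq2 adjusted p = 2.96e-05; -1.13 ± 0.24 without the libraries that stood apart). Each pair of a macrophage with a monocyte group passed the test as well, but those with Ly6Chi monocytes were less firm (DESeq2 adjusted p = 0.0284 for eYFP+ and 0.023 for eYFP-). The eYFP+ call was lost when eYFP+ replicate 1 or 2 or Ly6Chi replicate 3 was left out, and the eYFP- call when eYFP- replicate 1 or 2 or Ly6Chi replicate 3 was left out. Irf2 was not lowered in the libraries that stood apart (0.09 and 0.71 against the group mates).

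Irf1, the activator induced by interferon-gamma, did not pass the test in any contrast. It ranged from 99.5, 224 and 210 TPM in eYFP+ and 144, 205 and 183 TPM in eYFP- macrophages to 175, 140 and 159 TPM in Ly6Chi and 152, 19.8 and 166 TPM in Ly6Clo monocytes. The log2 difference of macrophages from monocytes was 0.31 ± 0.41 (DESeq2 adjusted p = 0.617), and 0.14 ± 0.13 (adjusted p = 0.43) without the libraries that stood apart. Ly6Clo replicate 2 alone stood outside the range of the others by a wide margin.

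Irf9, which acts downstream of the type I interferon receptor, varied least. Its levels were 130, 107.5 and 100.5 TPM in eYFP+, 89.9, 96.0 and 86.6 TPM in eYFP-, 148, 154 and 155 TPM in Ly6Chi and 119, 110.0 and 105 TPM in Ly6Clo libraries. The Ly6Chi libraries stood above all others and the eYFP- libraries below all others. The log2 difference of macrophages from monocytes was -0.46 ± 0.16 (DESeq2 adjusted p = 0.0156), a call lost when eYFP+ replicate 2 or 3 or eYFP- replicate 2 or 3 was left out. Without the libraries that stood apart it was -0.58 ± 0.11 (DESeq2 adjusted p = 9.65e-07).

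**Figure D3:**
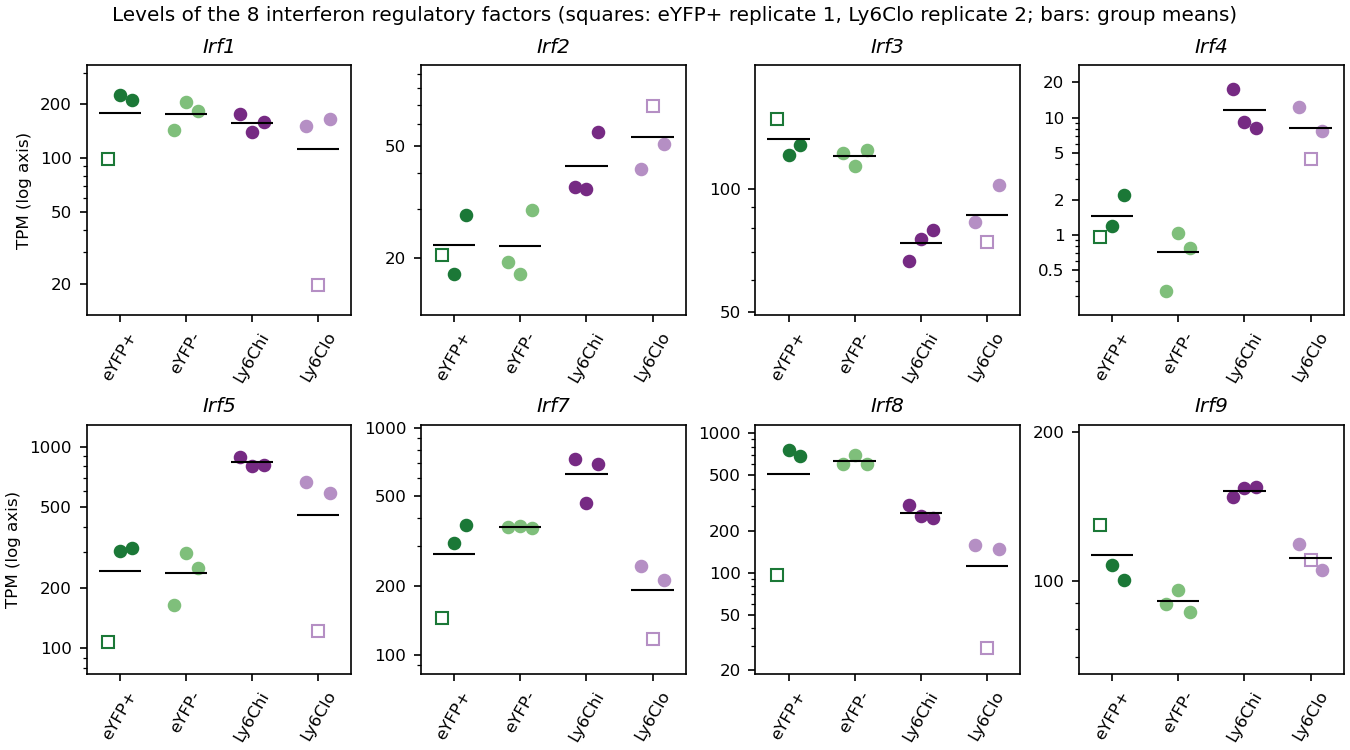
Level of each member (y axis, TPM on a log axis that differs between panels) in the 4 groups (x axis), with 1 point per library, bars at the group means and open squares for eYFP+ replicate 1 and Ly6Clo replicate 2. Irf8 is high in macrophages, Irf4, Irf5 and Irf2 are high in monocytes, and Irf7 is highest in Ly6Chi monocytes (465 to 727 TPM).

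The single pairs of a macrophage with a monocyte group share their groups with each other and with the comparison of the cell types. Between eYFP+ macrophages and Ly6Chi monocytes, 5 members were called (Irf2, Irf3, Irf4, Irf5 and Irf7) beside 24.5% of all genes tested in either direction. Against Ly6Clo monocytes the eYFP+ count was 3 (Irf2, Irf4 and Irf8) beside 28% of genes. eYFP- macrophages differed from Ly6Chi monocytes in 4 members (Irf2, Irf4, Irf5 and Irf9) beside 27.4% of genes, and from Ly6Clo monocytes in 3 (Irf2, Irf4 and Irf8) beside 26.3%. Without the libraries that stood apart the counts were 7, 4, 7 and 6, beside 36.5%, 30.7%, 36% and 34.1% of all genes tested. Beside the Irf2 calls against Ly6Chi monocytes, leaving out 1 library ended the Irf3 call of eYFP+ against Ly6Chi (eYFP+ replicate 1 or Ly6Chi replicate 1 or 2) and the Irf8 call of eYFP+ against Ly6Clo (eYFP+ replicate 2 or 3).

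The comparison of the monocytes asks what separates classical Ly6Chi from patrolling Ly6Clo cells. Irf7 was the 1 member called, higher in Ly6Chi monocytes, beside 3.66% of all genes tested called higher and 4.97% called lower. Its log2 difference was 1.73 ± 0.38 (DESeq2 adjusted p = 0.000189; edgeR adjusted p = 0.0134), and the lowest Ly6Chi library (465 TPM) lay above the highest Ly6Clo library (246 TPM). Irf8 differed by 1.29 ± 0.65 (DESeq2 adjusted p = 0.231) and Irf9 by 0.46 ± 0.23 (adjusted p = 0.225). Without the libraries that stood apart both were called as well, with Irf8 at 0.85 ± 0.17 (DESeq2 adjusted p = 1.67e-05) and Irf9 at 0.49 ± 0.16 (adjusted p = 0.0194), beside Irf7 at 1.49 ± 0.23 (adjusted p = 6.9e-09), and 6.72% of all genes tested were then called higher and 6.88% lower. Irf1, Irf2, Irf3, Irf4 and Irf5 were called in neither. Markers of other cells differed between the monocytes too. Of 8 conventional dendritic cell markers 6 were lower in Ly6Chi cells by DESeq2 (median log2 difference -2.62) and 3 by edgeR. That list summed to 172 to 183 TPM in Ly6Chi against 777 to 3000 TPM in Ly6Clo libraries, mostly Cd209a in the latter. Of 6 macrophage markers 3 were lower by DESeq2 (sums of 1835 to 2053 against 3217 to 3306 TPM) and 1 by edgeR. Of 8 neutrophil markers 2 were higher in Ly6Chi cells by either tool, while 1 was lower by DESeq2 and 0 by edgeR. Their part in the values of Irf7, Irf8 and Irf9 was not tested. The ratio of inducible Irf7 to latent Irf3 was 6.15 to 10.9 in Ly6Chi libraries and 1.58 to 2.97 in Ly6Clo libraries.

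The comparison of eYFP+ with eYFP- macrophages asks whether embryonic and adult origin leave different levels of the family. DESeq2 called 0 of 8 members, beside 0.153% of all genes tested called higher and 1.88% called lower. At an unadjusted p under 0.05 DESeq2 found 1 member and edgeR 0. That member was Irf4, at a log2 difference of 1.07 ± 0.51 (DESeq2 adjusted p = 0.489) and on the lowest counts in the family. Irf8 differed by -0.32 ± 0.65 with all libraries and by 0.15 ± 0.17 without the libraries that stood apart, and by 0.16 without eYFP+ replicate 1 alone, so its sign rested on that library. Irf7 differed by -0.41 ± 0.38 and Irf9 by 0.36 ± 0.23. The other members differed by 0.02 to 0.18. Standard errors of 0.23 to 0.65 leave room for differences that 3 libraries a group could not detect. Several marker lists of other cells were lower in eYFP+ than in eYFP- libraries, with erythroid markers at 22146 to 35141 TPM against 8783 to 14391 TPM (2 of 8 called lower in eYFP+ cells by DESeq2, and 8 of 8 without the libraries that stood apart) and T and NK cell markers at 59.4 to 120.0 TPM against 7.97 to 21.7 TPM (1 of 9 called). The called gene was Nkg7 (57.7 against 5.5 TPM on average), which with Gzma (20.1 against 3.59 TPM) made up most of that sum. The NK cell genes Ncr1 (8.85 against 2.32 TPM) and Klrb1c (5.36 against 1.26 TPM) lay in the same direction without a call, the T cell genes Cd3d, Cd3e, Cd3g and Trac averaged 0.168 to 1.11 TPM in both groups, and Nkg7 was also higher in Ly6Chi than in Ly6Clo monocytes (37.2 against 10.4 TPM). Neutrophil markers summed to 207 to 2543 TPM in eYFP- and 120.3 to 195 TPM in eYFP+ libraries, with 3 of 8 called lower in eYFP+ cells. Of 8 conventional dendritic cell markers 3 were lower in eYFP+ cells as well, Flt3 (0.443 against 12.9 TPM on average), Xcr1 (0.168 against 4.89 TPM) and Cd209a (0.368 against 3.64 TPM), although the sums of the list overlapped (73.6 to 85.8 against 70.4 to 120.2 TPM). By edgeR 0 of 8 erythroid, 0 of 8 neutrophil and 0 of 8 conventional dendritic cell markers were called, with 7, 5 and 4 at an unadjusted p under 0.05. The part of this RNA in the members' values was not tested.

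**Figure D4:**
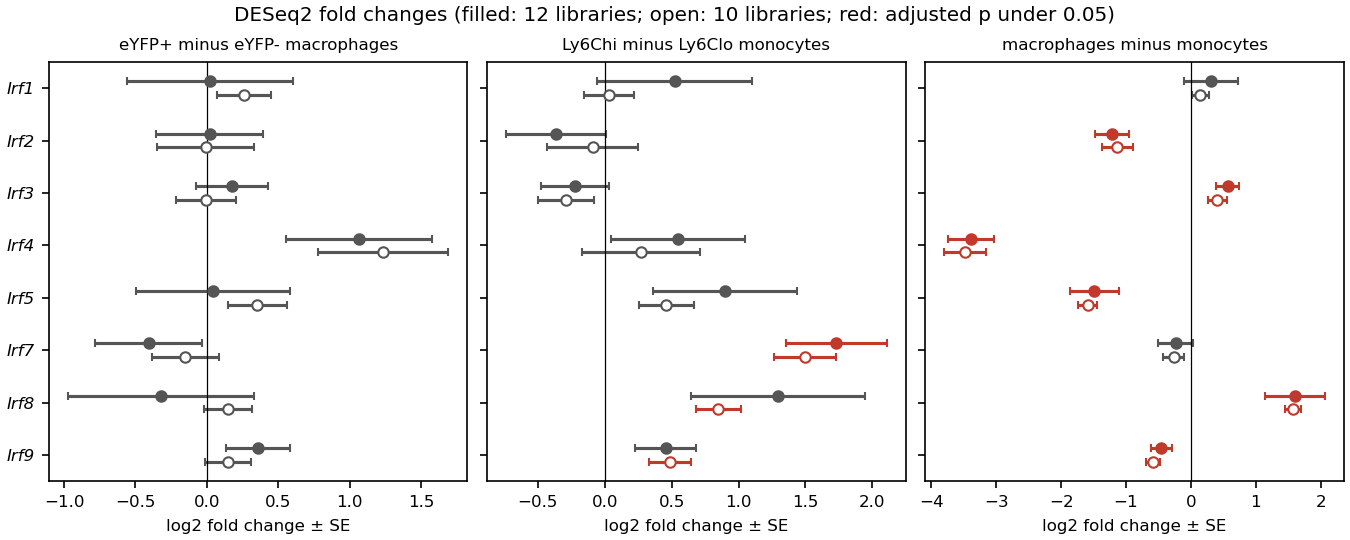
DESeq2 log2 fold change (x axis) with its standard error for each member (y axis) in 3 comparisons, with all 12 libraries (filled) and without the pair that stood apart (open); red marks an adjusted p under 0.05. No member is red for eYFP+ against eYFP- in either fit, Irf7 is red in both for Ly6Chi against Ly6Clo with Irf8 and Irf9 red as open points alone, and the same 6 members are red in both for macrophages against monocytes.

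Genes that act above, beside or below the family were counted from lists. Interferons themselves were nearly absent: of 19 interferon genes 9 had no count in any library, and the list summed to at most 8.61 TPM in a library. Only 1 could be tested, Ifnk, and it was lower in macrophages by DESeq2 (-3.50) and by edgeR. Ifnk averaged 0.417 and 0.393 TPM in eYFP+ and eYFP- macrophages against 3.33 and 5.10 TPM in Ly6Chi and Ly6Clo monocytes. Of 12 interferon receptor and JAK-STAT genes, 2 were higher and 5 lower in macrophages, beside 20.3% and 15.0% of all genes tested (median log2 difference -0.57, against 0.08 for all genes tested). Il10rb, a receptor chain shared by interleukin-10 and interferon-lambda, was higher (1.06 ± 0.29, DESeq2 adjusted p = 0.00148) and Stat3, the transducer of interleukin signals, was lower (-2.11 ± 0.31, adjusted p = 1.76e-10), as was the interferon-gamma receptor chain Ifngr1 (-0.82 ± 0.18, adjusted p = 4.16e-05). Between the monocytes 1 of the 12 was called, beside 3.66% of all genes tested called higher and 4.97% lower, so the count lay near that of all genes. It was Stat2, a partner of Irf9, higher in Ly6Chi cells (1.89 ± 0.52, DESeq2 adjusted p = 0.00569, edgeR adjusted p = 0.0582). Without the libraries that stood apart 3 were higher and 0 lower, beside 6.72% and 6.88% of all genes tested.

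Of 22 nucleic acid sensors, adaptors and kinases, 4 were higher and 8 lower in macrophages, where 20.3% of all genes tested were higher and 15.0% lower, so the count of higher genes lay near that of all genes. Mavs, the adaptor of the cytosolic RNA sensors, was higher (1.71 ± 0.16, DESeq2 adjusted p = 2.3e-24), and Tmem173, which encodes the DNA pathway adaptor STING, was lower (-1.30 ± 0.17, adjusted p = 3.09e-13). Between the monocytes 5 of the 22 were higher in Ly6Chi cells, beside 3.66% of all genes tested. Without the libraries that stood apart 8 were higher and 1 lower, beside 6.72% and 6.88% of all genes tested. Ikbke, a kinase that activates Irf3 and Irf7, was at 28.5 ± 6.10 TPM (SD, n = 3) in Ly6Chi and 2.99 ± 1.75 TPM in Ly6Clo monocytes (log2 difference 3.27 ± 0.46, DESeq2 adjusted p = 1.19e-10).

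Of 11 DNA-binding partners, 1 was higher and 5 lower in macrophages, again beside 20.3% and 15.0% of all genes. The higher one was Batf2 (1.35 ± 0.27, DESeq2 adjusted p = 3.02e-06), a factor known to pair with Irf1 in macrophages, and the lower ones included Ikzf1 (-0.99 ± 0.20, adjusted p = 3.33e-06). Of 7 genes known as targets of Irf8 with PU.1, 6 could be tested. In macrophages 4 were lower and 0 higher, beside 15.0% and 20.3% of all genes tested. The lower targets included Cybb, the NADPH oxidase subunit (-2.60 ± 0.16, DESeq2 adjusted p = 9.28e-61), and the transcription factor Klf4 (-3.68 ± 0.24, adjusted p = 8.07e-50). Irf8 itself was higher in macrophages. Spi1, which encodes PU.1, averaged 275 and 320 TPM in eYFP+ and eYFP- macrophages against 664 and 596 TPM in Ly6Chi and Ly6Clo monocytes. The part of either in the targets' values was not tested. Ets1 was lower in Ly6Chi than in Ly6Clo monocytes (-3.35 ± 0.42, DESeq2 adjusted p = 2.38e-13).

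Of 12 negative regulators, 1 was higher and 6 lower in macrophages beside the same shares of all genes, with Socs3, an inhibitor of JAK kinases, at -2.86 ± 0.50 (DESeq2 adjusted p = 1.41e-07). In Ly6Chi against Ly6Clo monocytes 2 were higher and 0 lower, beside 3.66% and 4.97% of all genes tested. They were Trim30a (1.24 ± 0.25, DESeq2 adjusted p = 4.01e-05) and Usp18 (1.61 ± 0.38, adjusted p = 0.00066), and both are themselves induced by interferon.

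Of 25 interferon-stimulated genes, the outputs of the family, 16 were higher in Ly6Chi than in Ly6Clo monocytes, beside 3.66% of all genes tested, at a median log2 difference of 1.48 against 0.02 for all genes tested. Without the libraries that stood apart 23 of 25 were higher, beside 6.72% of all genes, and with all libraries edgeR called 14. Mx1, an antiviral GTPase, was at 92.0 ± 17.9 TPM (SD, n = 3) in Ly6Chi and 28.9 ± 9.48 TPM in Ly6Clo monocytes, and Mx2 at 21.5 ± 0.914 and 4.46 ± 1.51 TPM. In macrophages against monocytes the list was mixed, with 4 higher and 7 lower beside 20.3% and 15.0% of all genes: Lgals3bp differed by 2.29 ± 0.25 (DESeq2 adjusted p = 4.83e-18) and Zbp1, a nucleic acid sensor, by -2.21 ± 0.22 (adjusted p = 9.18e-22). Between eYFP+ and eYFP- macrophages 0 of the 89 tested genes of these 7 lists were called by DESeq2 and 0 by edgeR, with 6 at an unadjusted p under 0.05 by either tool. Of all genes tested DESeq2 called 0.153% higher and 1.88% lower. Without the libraries that stood apart 2 of 90 were called, beside 0.476% of all genes tested called higher and 4.14% lower. The lists thus held no more calls than genes in general. The 2 were Socs3 (-1.69 ± 0.31, DESeq2 adjusted p = 6.79e-06) and Ifit1 (-1.10 ± 0.33, adjusted p = 0.0208), both lower in eYFP+ cells and named after their values were seen.

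**Figure D5:**
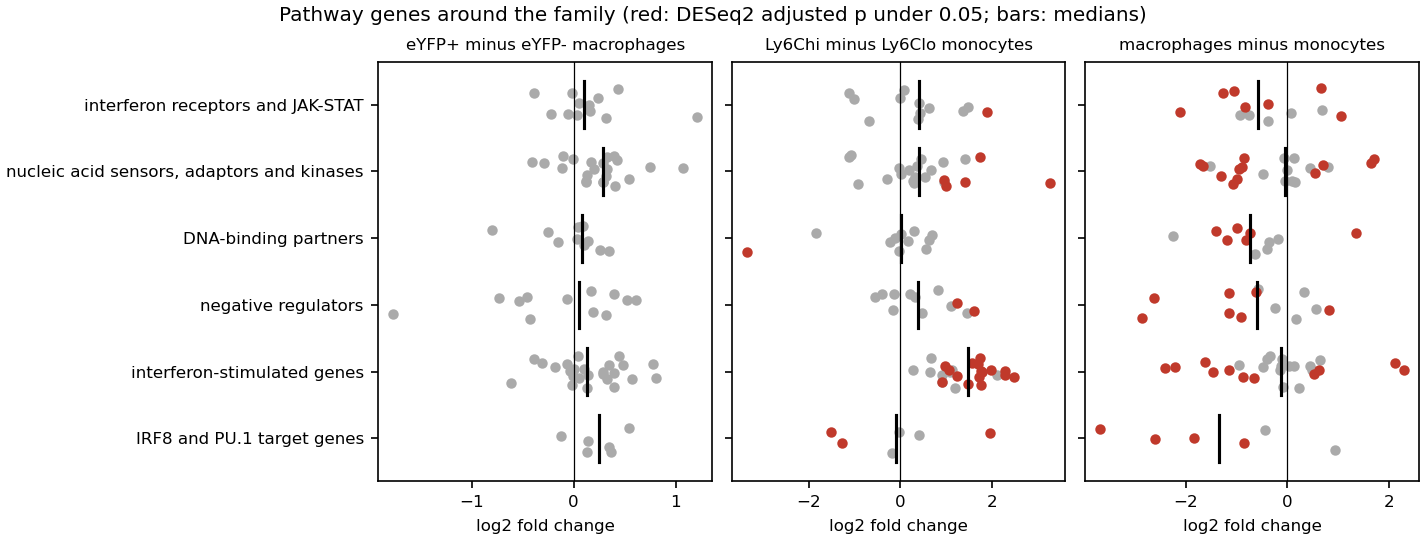
DESeq2 log2 fold change (x axis) of each tested gene of 6 lists around the family (y axis) in 3 comparisons, with black bars at the list medians and red points for an adjusted p under 0.05. In Ly6Chi against Ly6Clo monocytes 16 of 25 interferon-stimulated genes are red and to the right, and no point is red for eYFP+ against eYFP- macrophages.

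Across the 12 libraries the members did not form 1 pattern. On log2 normalized counts, Irf4 and Irf5 had a Pearson r of 0.79 (0.98 over the 10 libraries without those that stood apart) and Irf5 and Irf8 of 0.14 (-0.81 over the 10). The libraries share 4 groups and one sequencing design, so these values describe the groups as much as the genes. Among 10921 genes with a symbol and a mean of at least 50 normalized counts, the 3 most like Irf8 were Slc35f5 (r = 0.990), Grn (0.981) and Mob3c (0.979). Those most like Irf5 were Tnfaip8l2 (0.993), Fes (0.989) and Sh3tc1 (0.988). Irf7 was most like Flot2, Abtb1 and Rab31 (0.958 to 0.950), Irf4 most like Fam117b, Prkab2 and Mctp1 (0.977 to 0.965), and Irf3 most like Tbc1d7, Drg2 and Sec22a (0.973 to 0.954). Irf2 was most like Flt3l, Bnip3l and Cdk2ap2 (0.950 to 0.941) and Irf9 most like Borcs7, Xrn2 and Clec7a (0.956 to 0.938). For Irf1 the 3 were Polr1b, Zfp768 and Tor4a (0.992 to 0.990), but over the 10 libraries their r was 0.743, 0.672 and 0.766, so this likeness rested on the libraries that stood apart.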

How the data were processed

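Polyadenylated RNA of 12 sorted bone marrow samples was sequenced after amplification of full-length cDNA, with no molecular identifiers described, so depth (26390927 to 48618187 counts per library) gives counting precision only. The study's methods state that the authors trimmed reads, corrected sequencing errors, removed ribosomal RNA, aligned to GRCm39 with segemehl and counted unambiguous read pairs on Ensembl exons with featureCounts. bcl2fastq 2.20.0.422 is named in the submitters' processing notes. The authors deposited these counts, and the deposited TPM values are the authors' counts divided by gene length and scaled per library. The variance-stabilised table was not used. Symbols came from a table that matched 91.4% of identifiers, and GC content and length from GENCODE M21 (GRCm38), so promoter coordinates are of another build than the counts.

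The test was DESeq2 1.42.0 on the counts, run in R 4.3.3 (median-of-ratios size factors, 1 fit of 12 libraries with group as the only factor, Wald tests, Benjamini-Hochberg adjusted p under 0.05 over all genes tested, independent filtering). The scripts were tested on simulated data. Levels are TPM, per length. The members, the gene lists and the markers were chosen with earlier results of these data known. Genes named from a list were the 2 with the lowest adjusted p per direction and comparison, at a mean of at least 50 normalized counts, and not all are printed. Alternatives were edgeR 4.0.16 (quasi-likelihood), TMM scaling, no Cook cutoff, no independent filtering, a floor of 10 counts in 3 libraries, the replicate number as a block, a spline correction for GC content (alone and with the block), limma 3.58.1 on log2(TPM + 1) or log2(TPM + 0.1), with genes at 1 TPM in 3 libraries or unfiltered, and leaving out each library. Leaving out both libraries that stood apart, and edgeR without them or with the block, were added after seeing the data. Protein sequences were not used here, and some items are not reported here.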

Additional observations from a re-analysis of the deposited data

How the results depend on the processing

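The 26 alternatives left most calls on the members as they were. Irf7 in Ly6Chi against Ly6Clo monocytes passed under every one, and Irf2 and Irf4 in macrophages against monocytes likewise. The count for macrophages against monocytes (6) was 5 to 6 when 1 library was left out and 6 with the replicate block, 5 with the replicate block and GC correction together, and 4 with limma on unfiltered values (Irf2, Irf3, Irf4 and Irf9). For Ly6Chi against Ly6Clo monocytes the count was 1 with the replicate block and when any 1 library was left out, and 3 without both libraries that stood apart, by DESeq2 and by edgeR. It was 0 for eYFP+ against eYFP- macrophages throughout. Of the pairs of groups, eYFP+ against Ly6Chi went from 5 to 2 with unfiltered limma (Irf2, Irf5 and Irf7 were lost; Irf2 was also lost with no independent filtering, and Irf2 and Irf5 in eYFP- against Ly6Chi with unfiltered limma; Irf3 was lost with GC correction, with the replicate block and GC correction together, and by edgeR with the replicate block), eYFP- against Ly6Chi from 4 to 7 without both libraries (7 by edgeR), and eYFP- against Ly6Clo from 3 to 5 with GC correction, to 6 without both libraries and to 5 by edgeR without them. Against Ly6Clo monocytes, edgeR with the replicate block lost Irf8 in both macrophage groups (2 members called in each), and for eYFP+ all 3 limma settings called Irf3 in place of Irf8. Leaving out 1 library gave 4 to 6, 2 to 4, 3 to 6 and 3 to 4 members for eYFP+ against Ly6Chi, eYFP+ against Ly6Clo, eYFP- against Ly6Chi and eYFP- against Ly6Clo. The causes were not tested.

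Signs turned only where no call had been made. For eYFP+ minus eYFP-, Irf1 became -0.0662 with limma (-0.0670 at the smaller pseudocount) and Irf5 -0.0822 (-0.0832), Irf2 -0.0074 and Irf3 -0.0043 without both libraries, and Irf8 0.15 without both libraries and 0.16 by edgeR without them. Leaving out 1 library gave -0.17 to 0.27 for Irf1, -0.18 to 0.29 for Irf2, -0.15 to 0.36 for Irf5 and -0.72 to 0.16 for Irf8. Irf1 minus Ly6Chi monocytes became -0.015 with GC correction in eYFP+ macrophages (leaving out 1 library, -0.13 to 0.31), and in eYFP- macrophages -0.20 with GC correction, -0.19 with the replicate block and GC correction, -0.0042 without both libraries and -0.012 by edgeR without them (leaving out 1 library, -0.054 to 0.12). Irf9 in eYFP+ minus Ly6Clo became 0.00991 with limma (0.00994 at the smaller pseudocount; leaving out 1 library, -0.24 to 0.079). Irf3 in eYFP- minus Ly6Clo became -0.48 with GC correction and -0.46 with the replicate block added.

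Deviations of macrophage libraries with one number correlated at 0.297, 0.169 and 0.0589, and not all exceed 0.1, the level set for treating libraries as paired, so whether they share a mouse is not settled by these values. Over all genes, DESeq2 called 439 genes for eYFP+ against eYFP- and 1155 with the replicate block, while edgeR called 64 and, with the block, 24. For Ly6Chi against Ly6Clo the counts were 1860 by DESeq2 and 829 by edgeR (2239 and 521 with the block). GC correction turned the split of calls between macrophages and monocytes from 4551 higher and 3364 lower to 3760 and 4545. With 3 libraries a group, 1 library of 12 can set a group's error, and Irf4 in macrophages rests on 36 to 257 counts.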
